A study of Mus musculus with 12 samples.

Results

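The distal regions shared by NKX2-1, PRDM16 and PRDM3 were 2884 of the 23273 stretches of the mouse genome that carried an NKX2-1 peak in at least 2 of 3 libraries from fetal lung epithelium. A stretch on chromosomes 1 to 19 was kept where it was at least 20 bases long, overlapped by 1 base or more both a stretch covered in each of 2 PRDM16 libraries and a peak of the single PRDM3 library, and overlapped no peak of any of 3 H3K4me3 libraries. They made up 12.4% of all NKX2-1 regions. Of the 7993 NKX2-1 regions without H3K4me3 they were 36.1% (Wilson 95% interval, 35.0% to 37.1%), a share that the rule itself sets. The peaks that chose the regions are the authors' own calls, so the number of regions and the presence of the peaks in them are descriptions and carry no test.

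The assay was CUT&RUN, in which an antibody holds a nuclease at a bound protein so that the DNA around it is cut out and sequenced. All libraries came from EpCAM+ epithelial cells, picked with magnetic beads from pooled lungs of wild type C57Bl6 fetuses at E17.5, late in gestation, with 100000 cells in a reaction. The NKX2-1 libraries numbered 3 and were made with 1 rabbit antibody, and the PRDM16 libraries numbered 2, replicate 1 with a rabbit and replicate 2 with a sheep antibody. There was 1 PRDM3 library and there were 3 H3K4me3 libraries, each with a rabbit antibody, and the 3 IgG control samples were not analysed here. No group carried a mutation or a treatment, so every comparison below sets regions against other regions within the same libraries. In bulk cells such as these, a larger share of cells bound and more binding per cell cannot be told apart.

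NKX2-1 is the homeodomain transcription factor that lung epithelium needs throughout its development, in the flat alveolar type 1 (AT1) cells of the gas exchange surface and in the surfactant-making type 2 (AT2) cells. PRDM16 and PRDM3, the product of Mecom, are close relatives that carry a PR domain and zinc fingers and are best known for their roles in brown fat and in blood stem cells. H3K4me3 is the histone mark of active promoters, so an NKX2-1 region without a peak of it is called distal here. Away from the promoters in use is where enhancers are usually found. A few of these distal regions still overlap annotated starts, as given below.

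The letters of a few of the regions are shown first, because they give the DNA that all 3 proteins were found over. Sequence was at hand for promoter windows only, which run from 250 bases before to 50 bases after an annotated start (RefSeq, build GRCm38.p6, the same as mm10). Of the distal shared regions, 58 (2.01%) overlapped such a window, and they touched 62 windows, 23 of protein-coding genes and 39 of long non-coding RNA genes. The 6 sequences below are the covered parts of windows, taken in order of the regions' fold enrichment ranks among the 11 whose covered part holds the NKX2-1 core letters CTTGAG or the NKX2 family letters CACTTGA on either strand. Capitals mark those letters, which share CTTGA and are both present where CACTTGAG or its reverse is written, and each sequence reads 5′ to 3′ along the strand of the gene whose window it is.
Gm30724, chr16:10349487-10349691, plus strand: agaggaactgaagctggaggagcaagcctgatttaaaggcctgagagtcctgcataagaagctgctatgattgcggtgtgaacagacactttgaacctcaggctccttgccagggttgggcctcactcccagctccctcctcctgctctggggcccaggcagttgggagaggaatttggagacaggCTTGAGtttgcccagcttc
4930543I11Rik, chr10:67785493-67785792, plus strand: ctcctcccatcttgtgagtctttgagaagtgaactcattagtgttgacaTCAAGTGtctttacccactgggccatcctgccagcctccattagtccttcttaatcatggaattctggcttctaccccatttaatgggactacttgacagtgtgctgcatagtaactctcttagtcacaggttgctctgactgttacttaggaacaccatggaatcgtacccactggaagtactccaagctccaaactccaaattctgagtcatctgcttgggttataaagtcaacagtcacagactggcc
Scgb1c1, chr7:140845315-140845572, plus strand: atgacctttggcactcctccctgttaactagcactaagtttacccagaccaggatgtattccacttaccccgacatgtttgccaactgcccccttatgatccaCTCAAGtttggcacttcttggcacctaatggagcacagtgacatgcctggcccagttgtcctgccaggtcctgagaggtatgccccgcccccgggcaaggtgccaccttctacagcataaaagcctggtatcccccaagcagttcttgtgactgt
Gm36090, chr2:164549332-164549535, minus strand: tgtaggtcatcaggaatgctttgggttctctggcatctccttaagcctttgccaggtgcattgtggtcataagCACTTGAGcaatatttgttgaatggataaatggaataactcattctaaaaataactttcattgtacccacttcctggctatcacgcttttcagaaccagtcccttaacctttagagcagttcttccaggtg
Gm45968, chr16:55523678-55523977, minus strand: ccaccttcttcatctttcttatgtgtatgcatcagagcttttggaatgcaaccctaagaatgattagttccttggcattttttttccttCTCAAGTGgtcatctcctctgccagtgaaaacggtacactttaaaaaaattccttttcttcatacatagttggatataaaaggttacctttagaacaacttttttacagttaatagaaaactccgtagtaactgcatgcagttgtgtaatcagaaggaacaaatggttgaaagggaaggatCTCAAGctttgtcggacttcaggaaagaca
Gm35785, chr3:93128196-93128495, minus strand: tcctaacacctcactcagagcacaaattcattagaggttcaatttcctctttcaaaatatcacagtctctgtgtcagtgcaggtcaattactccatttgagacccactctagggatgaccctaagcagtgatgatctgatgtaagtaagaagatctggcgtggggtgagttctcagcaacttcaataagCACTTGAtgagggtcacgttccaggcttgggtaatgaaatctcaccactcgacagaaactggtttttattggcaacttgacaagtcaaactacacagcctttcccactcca

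The first of these, over the start of the long non-coding RNA Gm30724, had a fold enrichment of 9.96, 4.39 and 3.54 in NKX2-1 replicates 1, 2 and 3, of 14.9 and 19 in PRDM16 replicates 1 and 2, and of 11.8 in PRDM3. Fold enrichment is the authors' value for the height of a peak over its background. At Scgb1c1, a secretoglobin gene of the family that holds the club cell protein, the fold was 8.82 and 3.26 in NKX2-1 replicates 1 and 2, 14.3 and 11.5 in the PRDM16 libraries and 7.47 in PRDM3, and NKX2-1 replicate 3 had no peak. Windows are not replicates, and a match to a few letters is a description of the window and not a bound site.

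Across the 62 windows, CTTGAG was found in 17 (27.4%; Wilson 95% interval, 17.9% to 39.6%), against 17.4% of the 17694 windows without an H3K4me3 peak and 15.7% of all 31396 windows. CACTTGA was found in 8 of 62 (12.9%; 6.69% to 23.4%), against 4.12% of the windows without H3K4me3 and 3.05% of all windows. The AP-1 letters TGANTCA were in 15 (24.2%; 15.2% to 36.2%), against 10.7% and 7.84%, and the C/EBP letters TTGCNNAA were also in 15, against 13.6% and 10.9%. The intervals of CACTTGA, AP-1, C/EBP and CTTGAG lay above the shares in windows without H3K4me3. The TEAD letters GGAATG did not stand out, at 14.5% of the covered windows against 16.9% and 14.6%, nor did the FOXA letters TGTTTAC, at 4.84% against 4.63% and 3.71%. All motifs were read on both strands over the whole window. The median share of G and C was 50.5% in the covered windows, 47.7% in windows without H3K4me3 and 53.0% in all windows, and its part in these shares was not tested. The letters of the EVI1 motif, which PRDM3 is known to bind through its first set of zinc fingers, were in 0 of 62 windows, where the Wilson interval allows up to 5.83%, and in 0.0541% of all windows, so a difference was not detectable in this number of windows.

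In every factor library the peaks over the distal shared regions stood in the upper part of that library's list. The median fold was 5.81, 3.26 and 3.20 in NKX2-1 replicates 1, 2 and 3, 7.0 and 6.39 in PRDM16 replicates 1 and 2, and 4.86 in PRDM3. These medians stood at the 78.8, 77.4 and 75.1 percentiles of the NKX2-1 lists, at 89.2 and 91.1 of the PRDM16 lists and at 84.2 of the PRDM3 list. A peak was present in NKX2-1 replicate 1 over 98.4% of the regions, in replicate 2 over 57.9% and in replicate 3 over 67.4%, and in all 6 factor libraries over 684 regions (23.7%). A q-value under 0.05 was reached by the NKX2-1 peak of replicate 1 in 94.3% of the regions but by that of replicate 2 in 17.8% and of replicate 3 in 22.9%, and by all 6 libraries together in 140 regions (4.85%).

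Over H3K4me3, the 9021 regions with all 3 factors were a little stronger in NKX2-1 and weaker in the sheep PRDM16 library. There the median fold was 7.45, 3.86 and 4.00 in the NKX2-1 libraries, 8.13 and 5.22 in the PRDM16 libraries and 4.75 in PRDM3. Distal regions with PRDM16 but no PRDM3 peak, 1320 in number, had medians of 4.70, 2.91 and 3.17 for NKX2-1 and 4.85 and 4.67 for PRDM16. The ranges between the quartiles of these 3 sets overlapped in each library. Fold values of different antibodies and libraries have scales of their own, so sets are compared within a library.

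**Figure D1:**
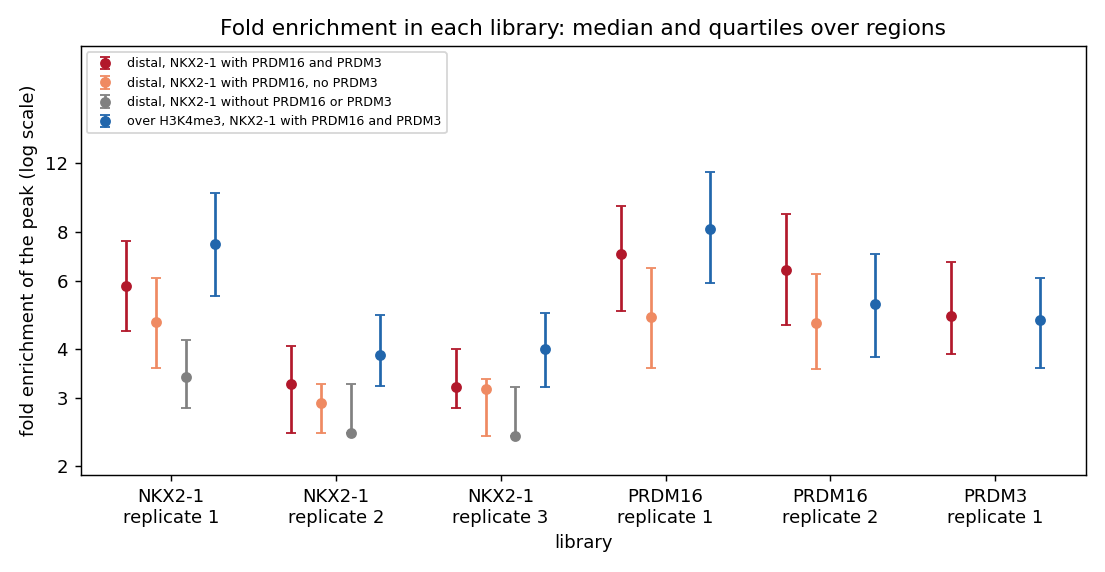
Median fold enrichment of the authors' peaks (points, log scale) with the first and the third quartile (bars) over the regions that hold a peak, by library and by set of regions. The distal shared regions lie above the distal regions without PRDM peaks in all 3 NKX2-1 libraries, by 0.78, 0.42 and 0.42 on the log2 scale.

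The 1837 distal NKX2-1 regions with no PRDM16 or PRDM3 peak passed the same NKX2-1 rule and differ from the shared regions in the PRDM peaks asked for. Distal regions with other combinations of PRDM peaks are in neither set. The folds compared are those of the NKX2-1 peaks that the rule used. Longer stretches were shared more often and had higher folds, so the choice of regions bears on the difference. In replicate 1 the range between the quartiles was 4.46 to 7.58 in the shared regions and 2.82 to 4.23 in the regions without PRDM peaks, with no overlap, and in replicates 2 and 3 these ranges overlapped. The median NKX2-1 fold was 5.81, 3.26 and 3.20 in the shared regions, against 3.39, 2.44 and 2.40 in the regions without PRDM peaks, for replicates 1, 2 and 3. The median log2 fold was thus higher in the shared regions by 0.78, 0.42 and 0.42, a mean of 0.54 ± 0.21 (SD, n = 3 libraries). It was higher in 3 of 3 libraries, and the exact two-sided sign-flip permutation test over libraries gave p = 0.25, the smallest value that 3 libraries allow. With peaks at q under 0.05 only, the mean difference was 0.27, and with stretches found in all 3 NKX2-1 libraries it was 0.24. In replicates 2 and 3 the fold takes few values: 3 values carry 52.3% and 51.7% of the peaks in the shared regions, against 8.95% in replicate 1, and 3.26 and 2.44 are neighbours among the commonest in replicate 2. Stretch length also differed, with a median of 325 bases in shared regions and 180 bases in regions without PRDM peaks. Among stretches of 200 to 400 bases the difference was 0.69, 0.42 and 0.42. Among those of 400 to 800 bases, where only 39, 31 and 38 peaks lay in regions without PRDM, it was 0.66, 0.00 and 0.04.

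The shared regions were also found again more often by an NKX2-1 library that had not been used to choose them. Regions were rebuilt from each pair of NKX2-1 libraries, and the remaining library was then looked up. Replicate 1 had a peak over 701 of 746 shared regions (94.0%), against 43 of 843 regions without PRDM peaks (5.10%). Replicate 2 had one over 684 of 1901 (36%), against 35 of 589 (5.94%), and replicate 3 over 701 of 1644 (42.6%), against 39 of 497 (7.85%). The difference averaged 51.2 ± 32.7 percentage points (SD, n = 3 libraries) and was positive in 3 of 3 (exact sign-flip permutation test, two-sided, p = 0.25, the smallest possible). The 3 rounds are not independent. The shared regions found again, 701, 684 and 701, are in each round those with peaks in all 3 libraries. The number of shared regions looked up, 746, 1901 and 1644, is what changed most between rounds. In stretches of 200 to 400 bases the shares were 94.6% against 3.77% for replicate 1, 32.0% against 6.67% for replicate 2 and 38.5% against 8.82% for replicate 3. NKX2-1 replicate 1 and all PRDM libraries carry peak names with the letter C, and NKX2-1 replicates 2 and 3 carry the letter H. The sources used here do not say what the letters mark, and their part in the larger difference of replicate 1 was not tested.

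PRDM16 was found again with PRDM3 in the same way. With PRDM16 left out of the rule, distal NKX2-1 regions with a PRDM3 peak held a peak of PRDM16 replicate 1 in 3217 of 3502 cases (91.9%), against 2145 of 4491 (47.8%) without PRDM3. For replicate 2, made with the sheep antibody, the shares were 3071 of 3502 (87.7%), against 1847 of 4491 (41.1%). The mean difference was 45.3 ± 1.74 percentage points (SD, n = 2 libraries), and the exact sign-flip permutation test, two-sided, gave p = 0.5, the smallest that 2 libraries allow. In stretches of 200 to 400 bases the differences were 39.5 and 38.3 points.

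**Figure D2:**
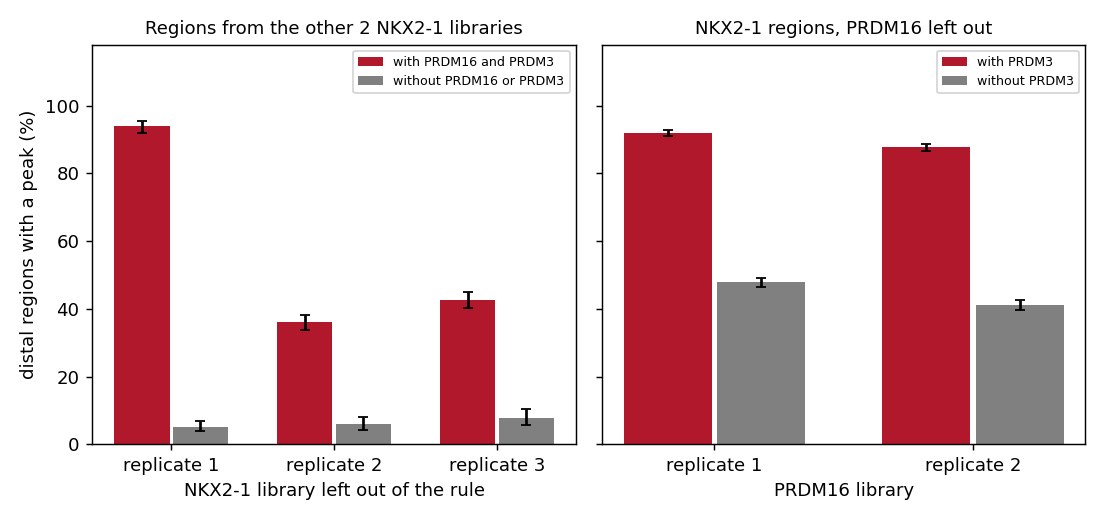
Share of distal NKX2-1 regions with a peak in a library that was not used to choose them (bars, from 0) with Wilson 95% intervals, which cover counting error over regions only. In the left panel NKX2-1 replicate 1 stands at 94.0% over shared regions against 5.10% over regions without PRDM peaks, and in the right panel the PRDM16 libraries stand at 91.9% and 87.7% with PRDM3 against 47.8% and 41.1% without.

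Longer NKX2-1 stretches were shared more often. Of the distal NKX2-1 stretches under 200 bases 15.7% were shared, of those of 200 to 400 bases 36.5%, of those of 400 to 800 bases 66.9%, and of those of 800 bases or more 90.4% (169 of 187; Wilson 95% interval, 85.3% to 93.8%). The shared regions ranged from 22 to 5713 bases, with quartiles of 226 and 491 bases. Their median fold also went with length: NKX2-1 replicate 1 had 4.70 under 200 bases and 7.95 at 800 bases or more, and PRDM16 replicate 1 had 5.76 and 8.62. A longer stretch has more room for an overlap, and the part of length in these shares was not tested.

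Within the shared regions the distances between peak summits are limited by the rule, which asks for peaks of the 3 factors over the same stretch. They are therefore a description, and no expected distance was computed. The summit of NKX2-1 replicate 1 lay a median of 130 bases from that of PRDM16 replicate 1 (quartiles, 42 and 331 bases, n = 2839 regions), 115 bases from that of PRDM16 replicate 2 and 131 bases from that of PRDM3. NKX2-1 replicate 1 lay 163 and 153 bases from replicates 2 and 3, and replicates 2 and 3 lay 125 bases apart. NKX2-1 replicates 2 and 3 lay 154 and 153 bases from PRDM16 replicate 1 and 150.5 and 155 bases from PRDM3. Replicate 1 was thus nearer to the PRDM summits than to the other NKX2-1 libraries, while replicates 2 and 3 were nearer to each other than to PRDM16 replicate 1 or PRDM3, and replicate 1 and the PRDM libraries share the C in their peak names. The PRDM16 replicates lay 91 bases apart. PRDM16 replicate 1 and PRDM3 lay 108 bases apart, with 31.1% of the regions within 50 bases. In regions with all 3 factors over H3K4me3, PRDM16 replicate 1 and PRDM3 lay 137 bases apart and NKX2-1 replicate 1 and PRDM3 163 bases apart.

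**Figure D3:**
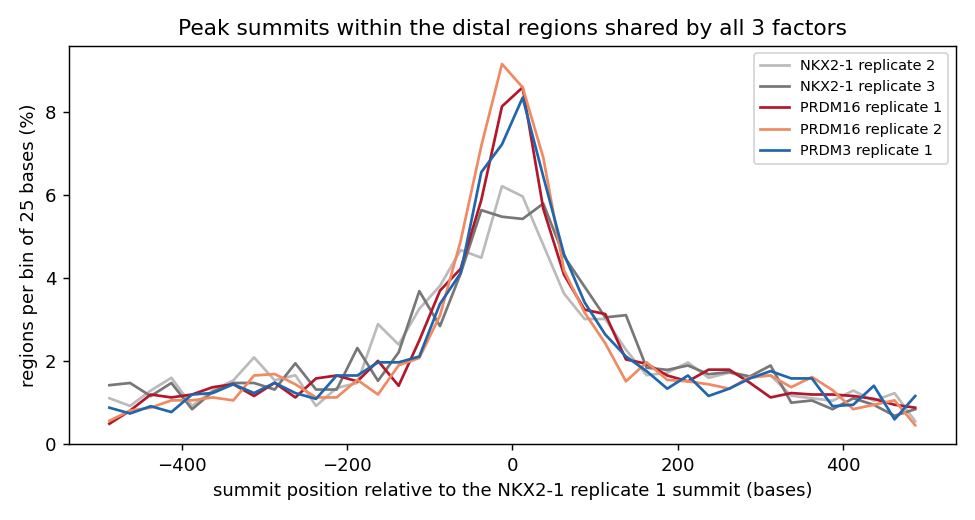
Position of the summits of 5 factor libraries relative to the NKX2-1 replicate 1 summit in the distal shared regions, as a percentage of the regions in each bin of 25 bases. All 5 lines are highest within 50 bases of the NKX2-1 replicate 1 summit, and those of PRDM16 and PRDM3 are higher at the centre than those of NKX2-1 replicates 2 and 3.

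Peak heights of the factors went together only loosely from region to region. Spearman's rho over the regions was 0.49 between PRDM16 replicate 1 and PRDM3 (n = 2884), 0.33 between the PRDM16 replicates, 0.36 between NKX2-1 replicate 1 and PRDM16 replicate 1 and 0.35 between NKX2-1 replicate 1 and PRDM3 (n = 2839 each). The NKX2-1 libraries reached only 0.14, 0.17 and 0.23 among themselves. The points share their libraries and, where regions lie under 1 peak, the peak itself, so these values describe the regions and carry no test. Counted by peaks, the 2884 regions formed 2685 sites, since regions that touch the same peak of any factor library were joined. Of the sites, 2501 held 1 region, 169 held 2, and 15 held 3.

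The shared regions lay about as far from gene ends as other distal NKX2-1 regions did. Their median distance to the nearest end of a protein-coding gene was 26922.5 bases, against 22755.5 in distal regions with PRDM16 but no PRDM3, 29484 in distal regions without PRDM peaks and 375 in regions with all 3 factors over H3K4me3. Within 1 kb of an end lay 71 (2.46%; Wilson 95% interval, 1.96% to 3.09%), against 5.08%, 6.21% and 67.4% in the same 3 sets. Inside a protein-coding gene lay 1497 (51.9%; 50.1% to 53.7%), against 55.0%, 48.1% and 71.8%. On chromosome 13 the shared regions made up 45.1% of the distal NKX2-1 regions (180 of 399; 40.3% to 50.0%), and on the other chromosomes between 30.1% and 41.7%.

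A region was linked to the protein-coding gene with the nearest end within 50 kb, which links 1917 regions (66.5%) to 1503 genes, 7.27% of the 20665 protein-coding genes on chromosomes 1 to 19. A link is a distance and does not show which gene a region acts on. Of the linked genes, 1189 had 1 region, 244 had 2, 49 had 3, 14 had 4, 5 had 5 and 2 had 6. The other 967 regions had no gene end within 50 kb, and 476 of them lay inside a long gene, with 8 in Macrod2 and 6 each in Lmo7, Rad51b and Sh3rf1. Lmo7 is an AT1 marker of the lists below and counts there as not linked.

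The 12 regions that ranked highest by fold, averaged over the 6 factor libraries, were chosen by values of the peaks the rule used, and are described here without a test. The first, chr9:90035862-90036427, lay 9166 bases from an end of Rasgrf1, which encodes an exchange factor for Ras. Its fold was 18.4, 5.10 and 7.55 in the NKX2-1 libraries, 17.9 and 12.7 in the PRDM16 libraries and 17.9 in PRDM3, so every library was high, and NKX2-1 replicate 2 lowest. A region 38328 bases from Lifr, the receptor for leukemia inhibitory factor, at chr15:7051939-7052624, had the highest PRDM3 fold of the 12, 23.6, with 20.4 and 11.2 in PRDM16 and 13.4, 4.41 and 5.46 in NKX2-1. The region at chr2:35267397-35268341 inside Gsn, the actin-severing protein gelsolin, had 9.47, 6.51 and 7.19 in NKX2-1, 10.8 and 15.0 in PRDM16 and 8.03 in PRDM3.

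The remaining regions of the 12 spread over genes of several kinds and over gene-poor DNA. The region inside Dynlrb2, a dynein light chain of cilia, at chr8:116509028-116509624, had the highest NKX2-1 replicate 1 fold, 21.0, with 9.27 and 3.78 in replicates 2 and 3. The region at chr7:129671699-129672290, 36257 bases from Wdr11, had the highest PRDM16 replicate 1 fold, 25.7, against 9.79 in replicate 2. Another lay 3143 bases from Tent4b, a poly(A) polymerase gene, and had the highest NKX2-1 replicate 3 fold, 9.06. The other 6 were linked to no gene. Of these, 3 lay deep inside long genes, namely Tns1, which encodes the adhesion protein tensin, Auts2 and Ripor2. The rest lay outside genes, at chr10:66928134-66929255, at chr8:44656244-44656573, which is 276691 bases from a gene end, and on chromosome 18. All 12 had a peak in every factor library, which follows from how they were ranked. A missing peak was given the lowest rank, so a region without a peak in some library could not reach the averages of these 12.

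**Figure D4:**
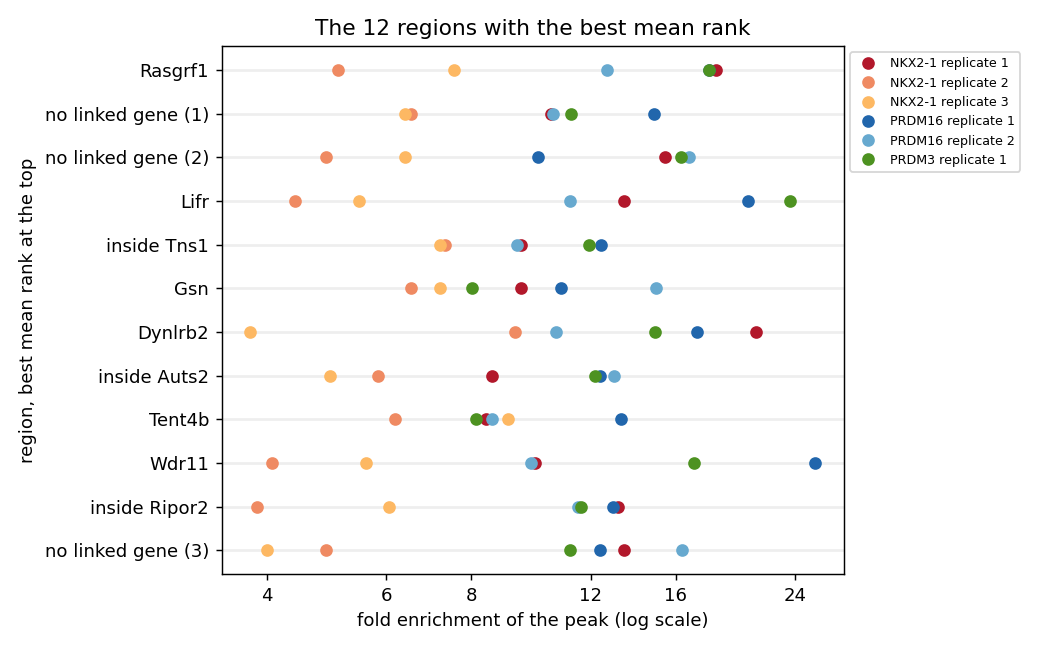
Fold enrichment in each of the 6 factor libraries (points, log scale) for the 12 distal shared regions that ranked highest on average, the highest at the top, named by the linked gene or by the gene that holds them. NKX2-1 replicates 2 and 3 lie left of the other libraries in most rows, between 3.78 and 9.27.

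The gene linked to the most shared regions was Hopx, the homeodomain-only protein that marks AT1 cells, together with Mtcl1, a microtubule crosslinking factor. Hopx (chromosome 5, minus strand) had 6 regions at 4 sites, all upstream, 11628 to 40237 bases from its annotated start. It had 8 distal NKX2-1 regions in all, of which 6 were shared, 1 had PRDM16 without PRDM3 and 0 lacked PRDM peaks. Hopx and the other genes with the most shared regions were picked by that number, which by itself favours a high share. Over all genes 35.7% of the linked distal NKX2-1 regions were shared. At chr5:77126466-77127035, the nearest to the gene, the fold was 8.95, 4.86 and 3.14 in NKX2-1, 8.32 and 10.5 in PRDM16 and 6.10 in PRDM3. At chr5:77137775-77138026 it was 5.74, 4.07 and 2.40 in NKX2-1, 9.37 and 17.1 in PRDM16 and 6.32 in PRDM3. Each of these 2 regions had a peak in all 6 libraries, and so did the farthest, chr5:77155210-77155509, where NKX2-1 replicate 1 was at 2.94 and PRDM3 at 2.49. The 3 regions between them each lacked a peak in 1 of NKX2-1 replicates 2 and 3.

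Mtcl1 had 6 regions at 5 sites and all lay inside the gene. The tallest, chr17:66358627-66359014, reached 25.5 in NKX2-1 replicate 1 and 6.80 in replicate 3, with no peak in replicate 2, and 19.6 and 6.75 in PRDM16 and 14.4 in PRDM3. None of the Mtcl1 regions had a peak in both NKX2-1 replicates 2 and 3. The gene rests on replicate 1: without that library it has 0 shared regions.

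Of the 5 genes with 5 regions each, Gramd2, another AT1 marker, had 4 inside the gene and 1 beyond its end, at 4 sites. Its best, chr9:59683916-59684182, lay 3895 bases downstream of an annotated start and had 7.04, 4.01 and 3.83 in NKX2-1, 11.6 and 9.33 in PRDM16 and 6.79 in PRDM3. Atp11a, a phospholipid flippase, and Wwc1, the Hippo pathway regulator also called KIBRA, had 5 regions at 5 sites each, 4 of the 5 inside the gene in both. Camk2g, a subunit of a calcium-dependent kinase, had 5 at 3 sites, and Tcte2, first known from testis, had 5 at 4 sites. Like Mtcl1, both have 0 shared regions without NKX2-1 replicate 1, and Gramd2, Atp11a and Wwc1 then have 1 each. Gramd2, Atp11a, Camk2g and Wwc1 had 5 distal NKX2-1 regions each and all were shared, which the choice of genes by shared regions favours.

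Among the 14 genes with 4 regions, Gsn, Hes1, Tekt5, Tectb and Mical2 held the regions of highest rank. Hes1, the transcriptional repressor that Notch signals switch on, had all 4 outside the gene, 4771 to 19683 bases away, at 3 sites. The nearest pair, chr16:30059192-30059529 and chr16:30060075-30061096, lie under the same tall peaks of NKX2-1 replicate 1 (10.6), PRDM16 (15.1 and 15.2) and PRDM3 (8.82). In replicates 2 and 3 the NKX2-1 fold was 5.85 and 3.56 in the one and 3.86 and 3.83 in the other. The 4 regions of Tekt5, a tektin of sperm tails, include the Gm30724 sequence printed above, at 2 sites, and they lie between Tekt5 and Emp2, an AT1 membrane protein gene that has 2 shared regions of its own on the same stretch of chromosome 16. Mical2, an actin-oxidising enzyme, had 1 region 12509 bases outside the gene with 16.8, 4.88 and 3.20 in NKX2-1, 14.8 and 8.48 in PRDM16 and 5.97 in PRDM3, and 3 inside.

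The gene lists that follow were chosen with earlier results of these data known, and their counts are set beside the 7.27% of all protein-coding genes without a test. Of 30 AT1 genes 16 were linked to a shared region (53.3%; Wilson 95% interval, 36.1% to 69.8%). Beside Hopx and Gramd2, Vegfa, the endothelial growth factor that AT1 cells secrete, had 2 regions under the same peaks, 43855 and 45018 bases from an end of the gene. The first of these, chr17:45972842-45973434, had 7.16, 3.26 and 3.20 in NKX2-1, 14.3 and 13.5 in PRDM16 and 8.51 in PRDM3, so that every library had a peak. Emp2, Scnn1g, Scnn1b, Timp3 and Rtkn2 had 2 regions each and Cldn18, Wnt7a, Col4a4, Spock2, Col4a3, Clic5, Sec14l3 and Pdpn 1 each. Among the 14 without one were Ager and Akap5. The AT1 genes had 48 distal NKX2-1 regions, of which 31 (64.6%) were shared, against 35.7% over all genes. A share above that of all genes was not particular to AT1. Among the lists below it was 77.8% for Notch (7 of 9 regions), 55.6% for junction and keratin and 54.5% for AT2 genes. It was 50% for airway secretory and for brown fat genes, and lower than over all genes for others, such as FGF genes at 33.3%. Of the 30 AT1 genes 5 (16.7%) were linked to a region without PRDM peaks, against 5.19% of all genes.

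Of 25 AT2 genes 7 were linked (28.0%; 14.3% to 47.6%). Lpcat1, which makes the phospholipid of surfactant, had 2 regions, both upstream. The one at chr13:73453513-73454247 had 6.71, 4.07 and 5.59 in NKX2-1, 23.0 and 11.9 in PRDM16 and 18.3 in PRDM3. Etv5, a transcription factor downstream of FGF, had 2 regions at 1 site 11897 and 12557 bases upstream, and Cd36, a fatty acid transporter, had 2 inside the gene. Sftpb and Dlk1 had 2 each, and Scd1 and Napsa 1 each. Abca3, the lipid pump of lamellar bodies, and Chil1 were among the 18 without one.

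Transcription factors of the lung epithelium were linked in 14 of 36 cases (38.9%; 24.8% to 55.1%). Nfib, a nuclear factor I gene needed for lung maturation, had 2 regions inside the gene. Of these chr4:82304149-82304749 had 13.1, 3.26 and 7.19 in NKX2-1, 8.85 and 9.25 in PRDM16 and 7.78 in PRDM3. Etv5, Nfia, Foxa2 and Prdm16 also had 2 each, and Irx2, Nr3c1, Irx3, Foxp4, Mycn, Foxa1, Elf3 and Grhl2 had 1 each. Cebpa and Cebpd were among those with 0.

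Genes of surfactant lipid synthesis were linked in 8 of 25 cases (32.0%; 17.2% to 51.6%). Chka, the choline kinase that begins phosphatidylcholine synthesis, had 3 regions at 3 sites, and Elovl5, a fatty acid elongase, had 2 at 1 site, both with 10.2 in NKX2-1 replicate 1 and 11.9 in PRDM16 replicate 1. Elovl6 had 2 regions and Pparg, Scd1, Lpin2 and Gpam 1 each, while Acaca and Acly, which start fatty acid synthesis, had 0. Lpcat1 and Scd1 stand in both this list and the AT2 list.

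Signalling lists came next. In the Notch list 4 of 18 genes were linked (22.2%; 9.0% to 45.2%): Hes1 with 4 regions and the ligand genes Dll1 and Dll4 and the receptor gene Notch1 with 1 each. In the Hippo list 5 of 20 were linked (25%; 11.2% to 46.9%), with 4 regions at 3 sites for Ccn1, a secreted target of YAP, and 2 each for Amotl1 and Amotl2, which tether YAP. In the TGF-beta and BMP list 6 of 21 (28.6%), in the Wnt list 5 of 23 (21.7%) and in the FGF list 3 of 18 genes (16.7%) were linked. Smad6, an inhibitor of BMP signals, and Tcf7l2, a transcription factor of Wnt signals, had 2 regions each. The linked genes of the FGF list were Etv5, the receptor gene Fgfr2 and Dusp6, which switches off the kinase ERK, and the regions of Fgfr2 and Dusp6 had no peak in NKX2-1 replicate 2. The intervals of the Notch, Hippo, TGF-beta and Wnt lists lay above 7.27%, and that of the FGF list, from 5.84% to 39.2%, did not. These counts depend on few regions and on single libraries. Without NKX2-1 replicate 1 the Wnt list had 0 of 23 genes linked, the Hippo list 1 of 20, the TGF-beta and BMP list 1 of 21, the FGF list 1 of 18 and the Notch list 2 of 18, against 2.17% of all genes. Without replicate 3 the Wnt list had 1 of 23 (4.35%), against 4.60% of all genes, and with peaks at q under 0.05 it had 0.

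Among structural genes, integrins, laminins and basement membrane genes were linked in 9 of 23 cases (39.1%; 22.2% to 59.2%), and Col4a1 and Itgb6 had 2 regions each. Epithelial junction and keratin genes were linked in 6 of 24 (25%; 12% to 44.9%). Krt18, a keratin of simple epithelia, had 3 regions under the same peaks, 9750 to 11408 bases upstream. Its widest, chr15:102016396-102017219, had 9.36, 4.07 and 4.00 in NKX2-1, 15.3 and 14.7 in PRDM16 and 10.9 in PRDM3, and a neighbouring region was nearest to Krt8, its partner keratin. Cdh1, the E-cadherin gene, had a region inside it, chr8:106646663-106647532, with 8.45, 6.51 and 4.79 in NKX2-1, 16.2 and 9.47 in PRDM16 and 8.95 in PRDM3. Together the 11 lists grouped as epithelial, which include the signalling lists, had 76 of 249 genes linked (30.5%; 25.1% to 36.5%).

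The 10 other lists hold airway cell types, which are epithelial too, brown fat and housekeeping genes, and cell types outside the lung epithelium. In all 10 the interval reached below the share of all genes. The shares of the brown fat, airway secretory and ciliated lists themselves lay above it. Ciliated genes were linked in 2 of 19 cases (Dnah5 and Rfx3), airway secretory genes in 2 of 15 (Cbr2 and Scgb1a1), neuroendocrine genes in 1 of 15 (Nkx2-2), endothelial genes in 1 of 18 (Vwf) and neuronal genes in 1 of 18 (Syt1). Mesenchymal genes were linked in 0 of 20 cases, where the Wilson interval allows up to 16.1%, and immune and blood, liver and housekeeping genes in 0 of 18 each, which allows up to 17.6%. Brown fat genes, listed with partner proteins of PRDM16, were linked in 3 of 18 cases (16.7%; 5.84% to 39.2%), Zfp516, Cidea and Pparg. Leaving out genes that also stand in an epithelial list, the other lists had 9 of 175 genes linked (5.14%; 2.73% to 9.48%).

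**Figure D5:**
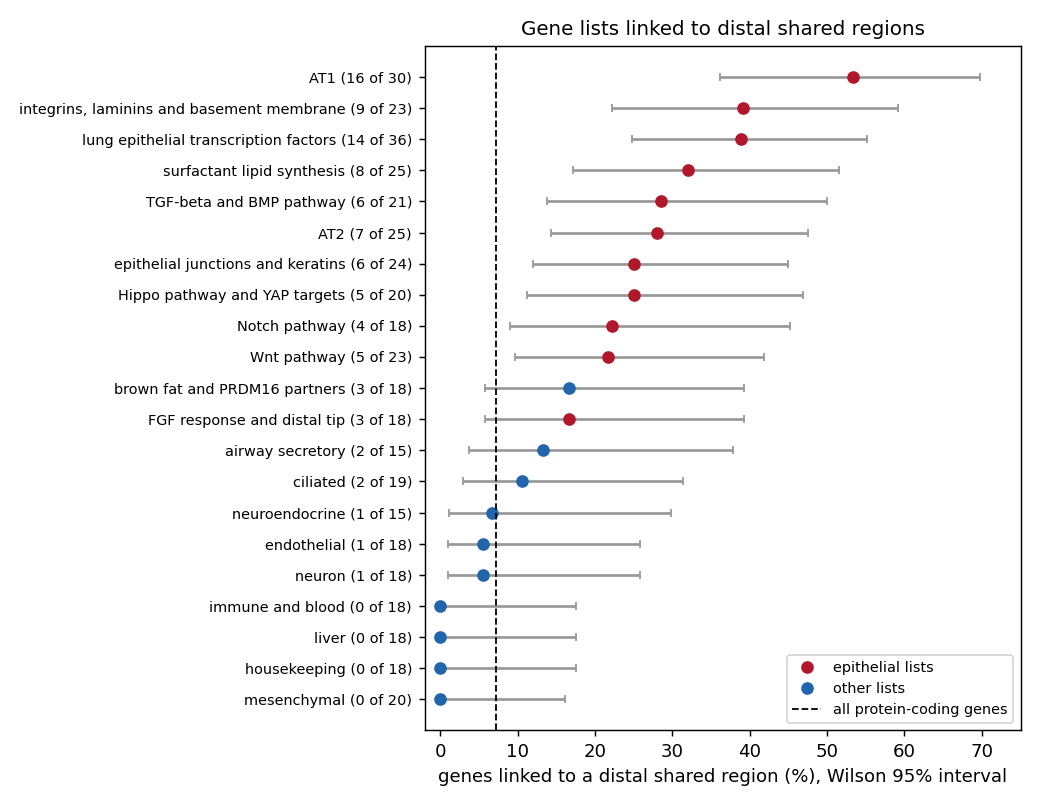
Share of the genes of each list that were linked to a distal shared region (points) with Wilson 95% intervals over genes (bars), ordered by share, and the share of all protein-coding genes (dashed line, 7.27%). The AT1 list is highest at 53.3%. The lists grouped as epithelial lie above the line, and so do the brown fat, airway secretory and ciliated lists. The mesenchymal, immune and blood, liver and housekeeping lists are at 0.

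The amount of DNA that can be linked to a gene and the state of its promoter moved with these counts. Linked genes had a median of 99.9 kb of DNA nearest to them within the link distance, against 41.0 kb for genes without a shared region, and 75% of them, against 55.7%, had H3K4me3 at an end in at least 2 of 3 libraries. Per megabase of such DNA there were 12.6 shared regions for AT1 genes, 7.74 for AT2 genes, 7.06 for junction and keratin genes and 5.45 for all epithelial lists, against 0.920 for the other lists and 1.56 for all genes. Lowest of the epithelial lists were FGF at 2.03, Wnt at 2.46 and TGF-beta and BMP at 2.96, nearer to the value of all genes. Highest of the other lists were airway secretory genes at 4.45 and brown fat genes at 2.40. Housekeeping genes had 0 shared regions and H3K4me3 at an end in 94.4% of cases, but also a median of only 22.9 kb of linkable DNA and 0.597 Mb in all, too little for 0 to say much. The part of promoter state in the linked counts was not tested.

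The counts of linked genes rest strongly on NKX2-1 replicate 1. Without it the AT1 count was 8 of 30 (26.7%), against 2.17% of all genes, and that of the epithelial lists 28 of 249 (11.2%), against 1 of 175 (0.571%) in the other lists. AT2 genes had 4 of 25, surfactant lipid genes 4 of 25, transcription factors 5 of 36, junction and keratin genes 4 of 24 and integrin, laminin and basement membrane genes 3 of 23. With peaks at q under 0.05 only, the AT1 count was again 8 of 30, against 2.25% of all genes. With the link distance shortened to 10 kb it was 10 of 30, against 3.29%, while AT2 genes had 1 of 25 and the transcription factors 1 of 36.

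The genes of the 3 factors themselves were covered unequally. Prdm16 held 6 shared regions, of which 2 were linked to it and 4 lay over 50 kb from any gene end. At chr4:154478467-154479078 the fold was 6.42 and 4.07 in NKX2-1 replicates 1 and 2, 13.6 and 14.0 in PRDM16 and 7.74 in PRDM3. Mecom, which encodes PRDM3, held 2 regions under the same peaks, 183638 and 184431 bases from the nearest gene end. The wider, chr3:30135382-30136072, had 10.1, 4.07 and 4.00 in NKX2-1, 15.7 and 19.5 in PRDM16 and 8.27 in PRDM3, with a peak in all 6 libraries. No shared region was linked to Nkx2-1.

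With a gap of at most 10000 bases between neighbours, 305 clusters of 2 or more held 662 of the 2884 regions, and 7 clusters held 4 or 5 each. These lay inside Lmo7, Sh3rf1 and Dgkg and near Hopx, Krt18 and Krt8, Sdc1 and Parp16. Hopx had 4 of its regions within 4673 bases and the keratin pair had 4 within 4841 bases. Sdc1, which encodes the epithelial heparan sulfate carrier syndecan 1, had 4 within 14420 bases. Regions of the same site are counted apart in these clusters. Since 169 sites held 2 regions and 15 held 3, part of the clustering is single sites in pieces, as with the 3 Krt18 regions at 1 site. Clusters were not counted by sites or for all distal NKX2-1 regions, so the numbers do not show that shared regions gather more than others.

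The widest shared region, chr17:39843022-39848734, differed from the rest in length. It covered 5713 bases, where the next measured 1854, and had a fold of 10.6 in PRDM16 replicate 1 but 2.21 in replicate 2, 2.87 in PRDM3 and 2.98, 4.56 and 3.33 in NKX2-1. The annotation places a pseudogene of the 18S ribosomal RNA, Rn18s-rs5, there. Some shorter regions had a similar uneven fold. At chr16:57391230-57391629 it was 2.83, 2.48 and 2.91 in NKX2-1, 9.13 and 1.77 in PRDM16 and 2.00 in PRDM3. At chr11:109011659-109012045 it was 2.21, 3.05 and 2.99 in NKX2-1, 8.28 and 1.97 in PRDM16 and 1.44 in PRDM3. Both, like the widest region, are among the 140 with q under 0.05 in all 6 factor libraries.

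At the length threshold the shortest regions kept measured 22, 24 and 25 bases, nearest to Ntn1, Msi2 and Prkag2. The longest left out measured 18, 17 and 16 bases, nearest to Trmt9b, Dld and Socs3, among 10 shared stretches shorter than 20 bases. At the link distance, regions 49707, 49745 and 49957 bases from Abcd3, Foxn3 and Tmco5 were linked, and regions 50064, 50065 and 50273 bases from Notch2, Agps and Hmgn3 were not.

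The peak lists give no read depth, so the precision behind a single fold value is unknown, and Wilson intervals cover counting error over regions, windows or genes only. The factor libraries held 52283 to 111489 peaks and the H3K4me3 libraries 14646 to 19117. A q-value under 0.05 was reached by 76.4% of the peaks of NKX2-1 replicate 1, 11% and 13.2% of those of replicates 2 and 3, and 42.6% to 45.1% of the PRDM peaks. H3K4me3 lay within 1 kb of an end of Epcam, Cdh1, Nkx2-1, Krt8 and Krt18 in 3 of 3 libraries and of Cldn18 in 0. Of genes that mark other cell types, Col1a1 had it in 2 of 3 libraries, Col3a1 and Cdh5 in 1, and Pecam1, Ptprc and Hbb-bs in 0. These are a few picked genes, and the gene lists show more of the mark. In at least 2 of 3 libraries it lay at an end of 38.9% of endothelial, 33.3% of immune and blood and 30% of mesenchymal genes. For liver and for neuronal genes the share was 11.1% each, and for all epithelial lists 88.8%. The labels do not say whether libraries of a group came from separate pools of lungs, so the spread between them may be technical.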

How the data were processed

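CUT&RUN peak lists of 9 of 12 samples were used, and the 3 IgG samples were not analysed here. Trimming with Trimmomatic, alignment with Bowtie2 to mm10, peak calling with MACS2 and annotation with HOMER are named in the submitters' processing notes. Versions, settings and the library used as background for the calls are not given in the sources used here. Each deposited list has, for every peak, the authors' score, a fold enrichment (a ratio over background), −log10 p-values and q-values, and the offset of the summit. The lists hold no read counts, so depth is unknown. The peak calls follow a threshold the authors chose, and many peaks of NKX2-1 replicates 2 and 3 have a q-value above 0.05, which bears on every overlap reported.

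From these lists, stretches covered in the stated number of libraries were built and overlapped with Python 3.11.15, numpy 2.4.6 and pandas 2.3.3. Permutation tests were computed with Python and numpy, intervals with scipy 1.17.1, and plots were drawn with matplotlib 3.10.9. Gene ends, annotated starts and promoter sequences are RefSeq's for GRCm38.p6. Libraries were grouped by the antibody in their labels. Tests are exact two-sided sign-flip permutations over libraries. The differences of each test had the same sign in every library. Each p-value is therefore the smallest that the number of libraries allows, whatever the spread between them. Motif shares were planned for windows of the regions themselves, but no genome sequence was at hand, so promoter windows were used and the printed sequences were chosen among them. The scripts were also tested on simulated data. The named regions are the 12 with the highest rank of fold averaged over the 6 factor libraries, a missing peak counting as 0. The named genes are the 12 with the most linked regions, ties going to the higher rank, and, in each list, up to 3 linked genes by the same order and up to 2 unlinked genes in alphabetical order. Gene lists numbered 21, and 10 of their genes, all on the X chromosome, were outside the chromosomes used. Some genes that this rule names are not reported here. The members, lists and tests were chosen with earlier results of these data known. The alternatives tried are stricter peak thresholds, other overlap and link rules, and leaving out each library.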

Additional observations from a re-analysis of the deposited data

How the results depend on the processing

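The number of distal shared regions (2884) and of linked genes (1503) follow the peak threshold and NKX2-1 replicate 1. With peaks at q under 0.05 there were 790 regions and 465 genes, with −log10 q of at least 5 there were 45 and 33, with each factor list kept to its top 20000 peaks by p-value 848 and 510, and with a stretch in all 3 NKX2-1 libraries 695 and 415. Linking within 10 kb gave 679 genes. Leaving out 1 library at a time gave 746 to 3306 regions and 449 to 1758 genes, the lowest of each without NKX2-1 replicate 1 and the highest without H3K4me3 replicate 1. The share of distal NKX2-1 regions that were shared (36.1%) was 51.1%, 56.25%, 38.2% and 67.7% under the same 4 peak rules, 30.1% with an overlap of at least 50% of the shorter interval, and 36.1% to 44.5% with 1 library left out. Regions inside a gene were 57.8% at −log10 q of at least 5, against 51.9%. Linked genes among the epithelial lists (30.5%) were 11.2% at q under 0.05, 1.20% at −log10 q of at least 5, 15.3% for the top 20000 peaks, 11.2% with all 3 NKX2-1 libraries, 11.2% within 10 kb, 37.3% within 100 kb, 23.3% by annotated starts, and 11.2% to 34.5% with 1 library left out. The distance of 130 bases between NKX2-1 and PRDM16 summits was 105, 62, 87 and 94 bases under the 4 peak rules and 116.5 bases with the 50% overlap. The cause of these shifts was not tested. The 3 tested differences stayed positive: NKX2-1 log2 fold between 0.24 and 0.63 in 16 alternatives, held-out NKX2-1 between 35.7 and 52.1 points in 9, and held-out PRDM16 between 30.4 and 45.7 points in 10. Their p-values cannot pass 0.05 with so few libraries. Annotated starts and stretches of 200 to 400 bases were chosen as alternatives after seeing the data. At −log10 q of at least 5 too few regions were left for the held-out NKX2-1 share and the fold difference, the planned motif alternatives were not run, and the single PRDM3 library could not be left out. No paired analysis was possible because no group of samples is compared with another, so replicate numbers have nothing to pair. The tests take the difference between 2 sets of regions within each library.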
